A study of Sus scrofa with 12 samples.

Results

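Of the 12 RNA-seq libraries of the series, 6 compare a low laminar shear stress of 2 dyne/cm2 with a physiological one of 30 dyne/cm2, and these are described here. They were taken by their labels: the 3 cultures at 2 dyne/cm2 and the first of 2 sets of 3 cultures at 30 dyne/cm2, joined by replicate number. The cells were primary porcine arterial endothelial cells (ECs), which the labels call aortic and the methods trace to coronary arteries of pigs 8 months old from a slaughterhouse. All 6 cultures grew on gelatin in medium with fetal calf serum and heparin, reached confluence on the same type of flow slide and were then exposed to flow for 48 h, and no source names a genetic change or a drug. The study describes 3 independent experiments with ECs of different donors, each with its conditions set up from 1 donor at 1 passage. The pairs are called donors 1, 2 and 3 here by replicate number. As cultured ECs the cells lacked the other layers of the vessel wall. The other set at 30 dyne/cm2 served only as an alternative control, since the labels do not say in words which set belongs to which comparison.

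ECs line the artery and sense the drag of flowing blood. Sustained laminar flow is known to raise the transcription factors KLF2 and KLF4, which turn on genes for nitric oxide production and against clotting and inflammation, and to orient the actin cytoskeleton along the stream. Low shear is found at branch points, at inner curvatures and inside aneurysm sacs, where the endothelium is known to be more permeable and the matrix under it is remodelled. The question of the comparison is which genes differ between ECs under such low shear and ECs of the same donor under physiological shear.

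Levels are given as CPM, counts per 1000000 reads on genes after scaling between libraries. The 6 libraries held 29606854 to 41058902 reads on genes. After the filter on low counts, 11226 genes were tested with edgeR's quasi-likelihood test in a fit with the donor as a block. A gene is said below to have risen or fallen at 2 dyne/cm2 when its Benjamini-Hochberg adjusted p was under 0.05. By this rule 1505 genes (13.4%) rose and 1390 genes (12.4%) fell, and these shares are the background against which each gene class is read. Fits that left out donors 1, 2 and 3 in turn called fewer genes, 695, 914 and 725 higher and 694, 885 and 769 lower. Against the other 30 dyne/cm2 set 1304 genes rose and 1465 fell. Counts of list members in those fits are to be read beside these. A change of at least 2-fold besides was seen for 568 genes (5.06%) that rose and 510 genes (4.54%) that fell. Of these 1078 genes, 1077 had the same direction in all 3 donors. The 3 values at 2 dyne/cm2 lay wholly above those at 30 dyne/cm2 for 2082 genes (18.5%) and wholly below them for 2152 genes (19.2%), called or not.

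Most calls were of moderate size. Among the genes past both thresholds, 408 rose and 340 fell by 2- to 4-fold, 146 rose and 135 fell by 4- to 16-fold, and 14 rose and 35 fell further. The donors responded to different extents. The median log2 fold change of the genes that rose at least 2-fold was 1.46, 1.21 and 1.93 in donors 1, 2 and 3, and that of the genes that fell at least 2-fold was -1.62, -1.32 and -1.89. Donor 2 thus had the smallest and donor 3 the largest changes in both directions. Of these 1078 genes, those that rose held 7.85 to 9.79% of the reads at 2 dyne/cm2 and 2.45 to 3.16% at 30 dyne/cm2. Those that fell held 2.42 to 3.08% and 7.92 to 9.49%. The gene of fibronectin, FN1, alone held 7.45, 5.23 and 11.1% of the reads at 2 dyne/cm2 and 3.35, 3.71 and 2.47% of those at 30 dyne/cm2, in groups that did not overlap, although its change did not pass the test (log2 fold change 1.28 ± 0.43 SE, adjusted p = 0.0861). It did pass against both 30 dyne/cm2 sets joined as 1 control (adjusted p = 0.0347) and with all 12 libraries in the fit (adjusted p = 0.0148). The first of these fits counts both cultures of a replicate number at 30 dyne/cm2 as separate. Against the other 30 dyne/cm2 set alone FN1 did not pass.

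Defining markers of endothelium were present in all 6 libraries. Among 11 endothelial markers found, the cadherin gene CDH5 (vascular endothelial cadherin) stood at 1972, 1747 and 1765 CPM at 30 dyne/cm2 and 1907, 1685 and 1512 CPM at 2 dyne/cm2 and did not pass the test (log2 fold change -0.11 ± 0.12 SE, adjusted p = 0.521). The summed level of the endothelial markers was lower at 2 dyne/cm2, 5126 to 6010 CPM against 7398 to 8329 CPM, with TEK, FLT1, EMCN, PECAM1, MMRN2 and ESAM lower and ROBO4 higher. Of 9 leukocyte markers, CD3E and PTPRC had 0 counts in every library. The list summed to 12.1 to 16.5 CPM at 2 dyne/cm2 and 18.6 to 28.4 CPM at 30 dyne/cm2, with the largest part from CD68, a lysosomal gene of macrophages, which was lower at 2 dyne/cm2 (12.9, 13.2 and 18.6 CPM at 30 dyne/cm2 and 4.81, 7.21 and 8.01 CPM at 2 dyne/cm2, log2 fold change -1.17 ± 0.15 SE, adjusted p = 0.00961). CD79A reached 4.77 CPM, CD14 3.25 CPM and ITGB2 1.92 CPM at most. Fibroblast markers summed to 366 to 1298 CPM at 2 dyne/cm2 and 162 to 299.7 CPM at 30 dyne/cm2, mostly from COL3A1, and smooth muscle markers to 151 to 187 CPM and 66.0 to 88.7 CPM, with the difference from SYNPO2 rather than SMTN (77.9, 57.5 and 82.8 CPM at 30 dyne/cm2 and 82.0, 64.9 and 73.9 CPM at 2 dyne/cm2). SMTN passed the test only against the other 30 dyne/cm2 set (log2 fold change 0.28, adjusted p = 0.0441). The defining smooth muscle genes ACTA2, MYH11, CNN1 and TAGLN stayed under 1 CPM in every library and DES was at 0. The part of other cell types in the collagen and contractile results below was not tested beyond these values. In bulk RNA, fewer cells of a kind and less RNA per cell cannot be told apart. EMCN did not pass the test without donor 2, nor did PECAM1 and ESAM without donor 1 or 2, or ROBO4 without any 1 donor (adjusted p = 0.0513 to 0.138), and against the other 30 dyne/cm2 set the same held for EMCN and ROBO4 (adjusted p = 0.0797 to 0.244).

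**Figure D1:**
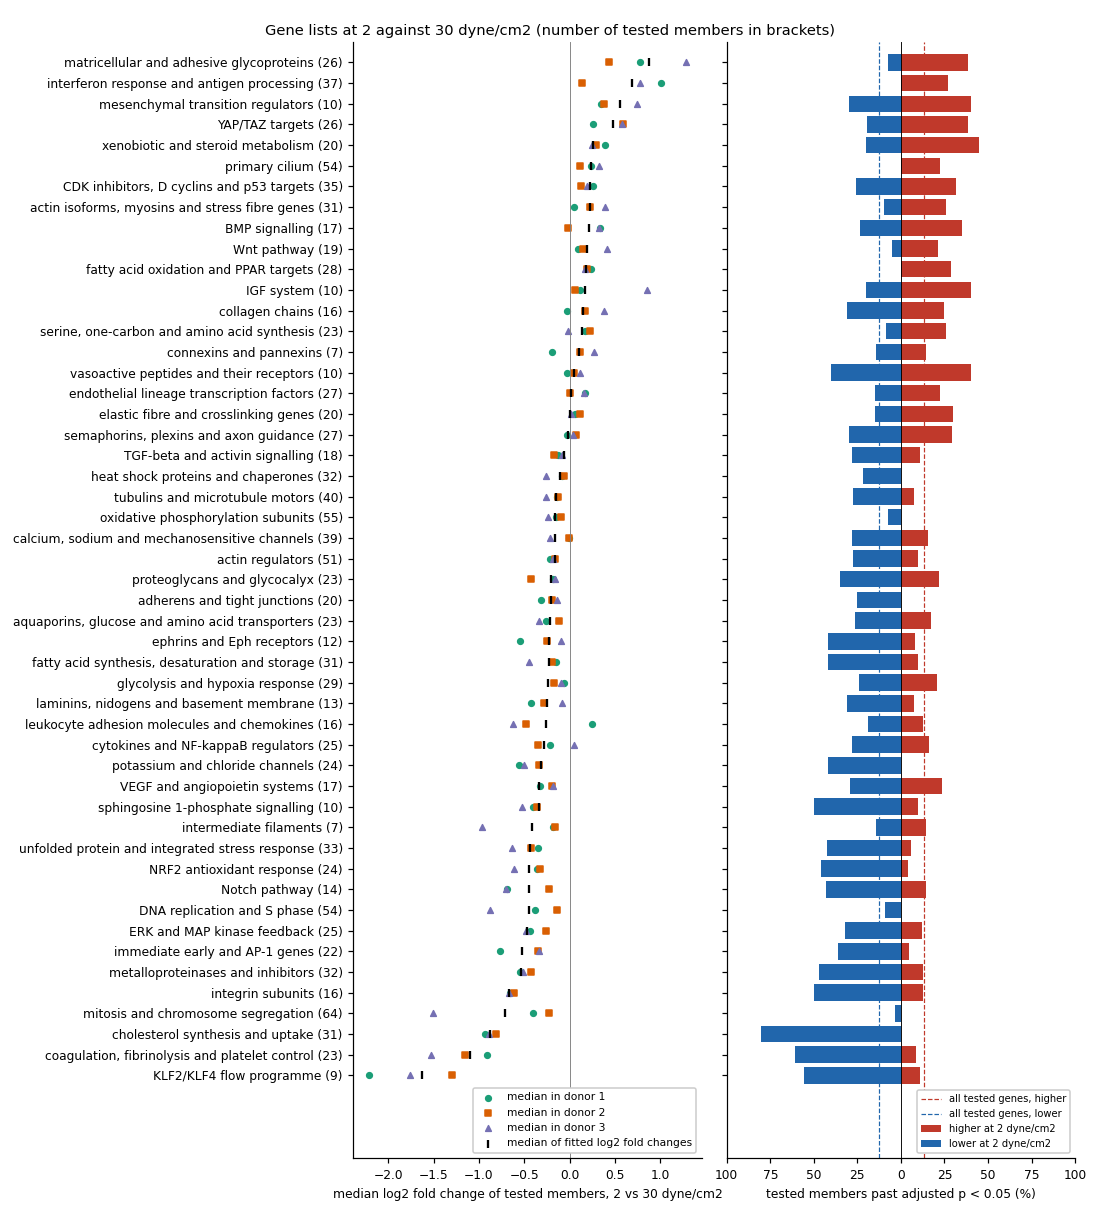
Each row is 1 of 50 gene lists with its number of tested members. The left panel gives the median log2 fold change (2 against 30 dyne/cm2) over the members, from the fit (bar) and in each of 3 donors (symbols), and the right panel the percentage of members that rose (red) or fell (blue) at an adjusted p under 0.05, with dashed lines at the 13.4% and 12.4% of all tested genes. Cholesterol genes, coagulation genes, integrins and metalloproteinases lie to the left in all 3 donors, and matricellular glycoproteins have the highest fitted median.

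The flow-responsive transcription factors were far lower at 2 dyne/cm2. KLF2 (ENSSSCG00000038911, chromosome 2, 61270733 to 61273037) stood at 150.5, 109 and 169.5 CPM at 30 dyne/cm2 and 2.71, 11.9 and 8.78 CPM at 2 dyne/cm2, and every value at 2 dyne/cm2 was below every value at 30 dyne/cm2 (log2 fold change -4.35 ± 0.53 SE, adjusted p = 0.00906). KLF4 fell from 249, 166 and 229 CPM to 25.1, 50.2 and 32.5 CPM without overlap (log2 fold change -2.62 ± 0.33 SE, adjusted p = 0.00924). Known targets of these factors fell as well. NOS3, the endothelial nitric oxide synthase, had 1188, 779 and 1695 CPM at 30 dyne/cm2 and 236, 288 and 483 CPM at 2 dyne/cm2 (log2 fold change -1.86 ± 0.20 SE, adjusted p = 0.00721), again without overlap. ASS1, which recycles citrulline to arginine for that enzyme, fell by 1.62 on the log2 scale, and CYP1B1, a cytochrome P450 known to be induced by flow, fell by 2.45. The prostacyclin synthase gene PTGIS went the other way (log2 fold change 0.55). In all, 5 of the 9 tested members of the KLF2 and KLF4 programme fell, each by at least 2-fold, and the median of the list was -2.21, -1.30 and -1.77 in donors 1, 2 and 3, against 0.00 for all tested genes. The wider KLF family, taken by symbol, had 8 of 12 members lower and 2 higher, and 1 of those 2 was KLF15, which rose from 0.951, 1.33 and 0.627 CPM to 11.1, 8.80 and 12.9 CPM without overlap (log2 fold change 3.50 ± 0.34 SE, adjusted p = 0.00637). PTGIS did not pass the test without donor 2 or 3 (adjusted p = 0.129 to 0.130), and against the other 30 dyne/cm2 set the same held for PTGIS (adjusted p = 0.476).

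Immediate early genes are those whose transcription answers stimulation within minutes, and the ones that passed the test were mostly lower after 48 h. Of 22 tested members, 8 fell and 1 rose, and the median log2 fold change was -0.52. Against the other 30 dyne/cm2 set 5 fell and 0 rose, with a median of -0.15. The nuclear receptor gene NR4A1 had 68.7, 16.3 and 30.5 CPM at 30 dyne/cm2 and 2.51, 2.40 and 2.20 CPM at 2 dyne/cm2, with no overlap and with the 3 values at 2 dyne/cm2 close together (log2 fold change -3.81 ± 0.41 SE, adjusted p = 0.00741). BHLHE40, a repressor tied to the circadian clock and to hypoxia, fell by 2.88 on the log2 scale, FOS, a subunit of AP-1, by 1.98, and KLF10 by 1.31. Feedback regulators of the ERK and other MAP kinases had 8 of 25 members lower and 3 higher, among them the phosphatase genes DUSP1 (log2 fold change -1.73) and DUSP4 (-2.57) and the Sprouty gene SPRY1 (-1.28). This last class depended on the control set. Against the other 30 dyne/cm2 set, 1 member fell and 5 rose, and the median turned from -0.47 to 0.21. Without donors 1, 2 and 3 in turn, 5, 6 and 6 immediate early genes and 5, 6 and 4 feedback regulators fell. DUSP4 did not pass the test without donor 2 (adjusted p = 0.0513), and against the other 30 dyne/cm2 set the same held for DUSP4 and SPRY1 (adjusted p = 0.414 to 0.492). With both 30 dyne/cm2 sets joined as control, FOS, DUSP4 and SPRY1 did not pass (adjusted p = 0.100 to 0.180).

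Genes of vasoactive peptides and their receptors changed in both directions and by large amounts. EDN1, the precursor of the vasoconstrictor endothelin, had 89.7, 201 and 47.2 CPM at 30 dyne/cm2 and 699, 633 and 799.7 CPM at 2 dyne/cm2, and the groups did not overlap although donor 2 was higher than donors 1 and 3 at 30 dyne/cm2 (log2 fold change 2.90 ± 0.49 SE, adjusted p = 0.0182). ADM, which encodes the vasodilator adrenomedullin, had 9.51, 6.44 and 2.06 CPM at 30 dyne/cm2 and 66.3, 62.7 and 22.1 CPM at 2 dyne/cm2, higher in every donor although donor 3 started lower (log2 fold change 3.15 ± 0.16 SE, adjusted p = 0.00293). The receptor for adrenomedullin moved the other way. CALCRL, its G protein-coupled subunit, fell from 333, 400.2 and 347 CPM to 61.9, 93.8 and 44.1 CPM (log2 fold change -2.50), and its partner RAMP2 fell from 175, 136 and 294 CPM to 39.1, 21.9 and 64.9 CPM (log2 fold change -2.32). Neither gene's groups overlapped. In the natriuretic peptide system, the gene of C-type natriuretic peptide, NPPC, fell by 4.89 on the log2 scale, the signalling receptor NPR1 fell by 0.94, and the clearance receptor NPR3 rose by 2.88. Angiotensin-converting enzyme, ACE, rose by 1.97. The list of 10 tested members thus held 4 that rose and 4 that fell, with a median of 0.05. NPR3 and ACE did not pass the test without donor 2 (adjusted p = 0.0603 to 0.0757), and against the other 30 dyne/cm2 set the same held for NPR3 (adjusted p = 0.0648).

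**Figure D2:**
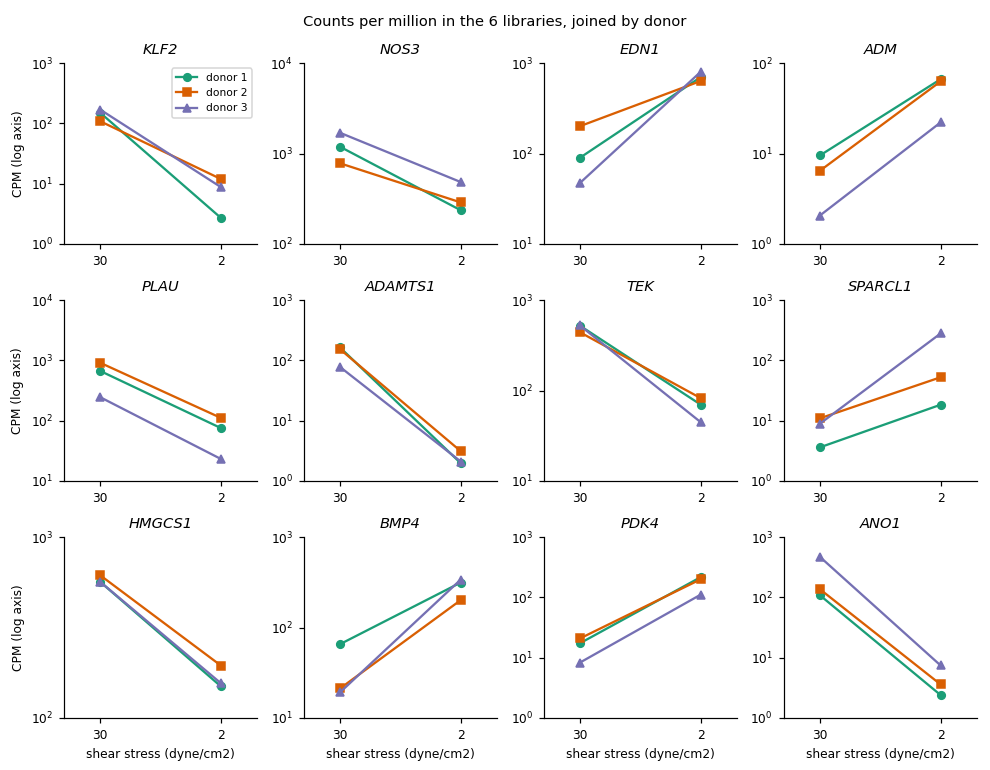
CPM (log axis) of 12 genes at 30 and 2 dyne/cm2 are joined by donor, 1 line for each of 3 donors. KLF2, NOS3, PLAU, ADAMTS1, TEK, HMGCS1 and ANO1 fall and EDN1, ADM, SPARCL1, BMP4 and PDK4 rise in all 3 donors, and in each panel the values at 2 dyne/cm2 do not overlap those at 30 dyne/cm2.

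Angiopoietin, VEGF and Notch genes, which govern vessel sprouting and quiescence, also changed in both directions. TEK, the receptor Tie2, fell from 521, 441 and 524 CPM to 69.9, 82.5 and 44.7 CPM in groups that did not overlap (log2 fold change -2.95 ± 0.24 SE, adjusted p = 0.00479), while ANGPT2, the ligand that antagonises it, rose from 7.39, 2.48 and 1.25 CPM to 23.9, 11.04 and 20.4 CPM also without overlap (log2 fold change 2.52 ± 0.47 SE, adjusted p = 0.0214). The VEGF receptor genes differed among themselves. FLT1 fell by 1.39 on the log2 scale, FLT4 rose by 1.42, and KDR did not pass the test (log2 fold change -1.27, adjusted p = 0.0609). KDR did pass, lower, in 6 alternatives: without donor 1 or donor 3, against the other 30 dyne/cm2 set or both sets joined, with all 12 libraries in the fit and with DESeq2 (adjusted p = 0.000675 to 0.0389). PDGFB, by which ECs recruit mural cells, rose by 1.60. In the Notch pathway 6 of 14 members fell and 2 rose. The ligand genes DLL1 and DLL4 fell by 2.17 and 1.55, the glycosyltransferase gene LFNG, which tunes the receptors, by 2.77, and the target genes HES4, HEY2 and HES1 by 1.54, 0.88 and 0.87, whereas HEY1 rose by 0.98. Among ephrins and their receptors 5 of 12 members fell, led by EPHB1 (log2 fold change -4.01), and EPHB4, a marker of venous fate, fell by 0.65. With donors 1, 2 and 3 left out in turn, 4, 6 and 4 Notch members and 2, 4 and 4 ephrin members fell. ANGPT2 and HEY1 did not pass the test without donor 2, nor did FLT4 and HES1 without donor 1 or 3, PDGFB and LFNG without donor 3, or EPHB4 without donor 1 (adjusted p = 0.0519 to 0.103), and against the other 30 dyne/cm2 set the same held for DLL4 (adjusted p = 0.251).

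BMP signalling, which ECs need for vessel quiescence and which flow is known to modify, had 6 of 17 members higher and 4 lower. The ligand gene BMP4 had 65.5, 21.2 and 19.2 CPM at 30 dyne/cm2 and 315, 201 and 339 CPM at 2 dyne/cm2 and did not overlap (log2 fold change 3.21 ± 0.38 SE, adjusted p = 0.00880). The transducer SMAD9 and the targets ID3 and ID2 rose by 1.24, 0.91 and 0.61 on the log2 scale. The antagonist gene NOG, the extracellular modulator BMPER, the inhibitory SMAD7 and the type I receptor ACVRL1 fell by 1.20, 0.93, 0.60 and 0.52. ATOH8, a basic helix-loop-helix factor known as a target of BMP and of flow, had the smallest p of all genes with a symbol that rose. It stood at 24.2, 16.0 and 26.4 CPM at 30 dyne/cm2 and 136, 93.5 and 165 CPM at 2 dyne/cm2 (log2 fold change 2.56 ± 0.08 SE, adjusted p = 0.00187), with a step of 2.49, 2.54 and 2.64 on the log2 scale in donors 1, 2 and 3. In the TGF-beta list 5 of 18 members fell and 2 rose. The change included the ligand gene TGFB1 (log2 fold change -0.69) and the latent binding protein gene LTBP1 (log2 fold change -1.71), which fell, and the target TGFBI, which rose (log2 fold change 2.03). For sphingosine 1-phosphate, a lipid that tightens the endothelial barrier, 5 of 10 members fell, the phosphatases PLPP3 and PLPP1, the kinase SPHK1, the exporter SPNS2 and the receptor S1PR1 (log2 fold changes -2.96, -1.43, -2.70, -1.11 and -0.47). The members of the BMP list that rose numbered 5, 6 and 3 without donors 1, 2 and 3, and those of the sphingosine list that fell 4, 5 and 3. In the TGF-beta list 4, 2 and 3 rose and 2, 3 and 3 fell, more rising than falling without donor 1. Against the other 30 dyne/cm2 set 4 members of the TGF-beta list rose and 4 fell, with DESeq2 5 rose and 5 fell, and in the BMP list 5 rose and 5 fell against that set. SMAD9 and SPNS2 did not pass the test without donor 3, nor did ID2, NOG and S1PR1 without donor 1 or 3, SMAD7 without donor 2 or 3, or ACVRL1 without donor 1 or 2 (adjusted p = 0.0517 to 0.184), and against the other 30 dyne/cm2 set the same held for ID2 (adjusted p = 0.304).

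Of the 51 lists, cholesterol metabolism had the highest share of members called in 1 direction. Of 31 tested members of cholesterol synthesis and uptake, 25 (80.6%) fell, 10 of them by at least 2-fold, and the median log2 fold change was -0.94, -0.81 and -0.89 in donors 1, 2 and 3. Enzymes from the head to the end of the pathway were among the 25. HMGCS1 (ENSSSCG00000016872, chromosome 16, 27936225 to 27957261), the synthase at the head of the mevalonate pathway, had 566, 616 and 567 CPM at 30 dyne/cm2 and 149.7, 195 and 156 CPM at 2 dyne/cm2, and the groups were far apart (log2 fold change -1.81 ± 0.10 SE, adjusted p = 0.00331). Further down the pathway, MVK, MVD, IDI1 and FDPS, which lead to farnesyl pyrophosphate, fell by 0.99, 0.59, 1.28 and 0.68 on the log2 scale. FDFT1 and SQLE, the first steps committed to sterols, fell by 0.79 and 1.07, and the late enzymes CYP51A1, MSMO1, NSDHL, HSD17B7, EBP, SC5D and DHCR7 fell by 0.39 to 1.82. MVD and FDPS did not pass the test without donor 1 or 3, nor did SC5D without any 1 donor (adjusted p = 0.0520 to 0.205).

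Uptake and control genes of the same class fell too. NPC1, which exports cholesterol from lysosomes, fell by 1.48 on the log2 scale. The sterol sensor genes SCAP and INSIG1 fell by 0.49 and 0.71, and SREBF2, the transcription factor of the pathway, by 0.45. The largest change was that of CH25H, a hydroxylase that makes the signalling oxysterol 25-hydroxycholesterol, which fell from 8.31, 22.1 and 39.5 CPM to 0.562, 0.520 and 0.734 CPM without overlap (log2 fold change -5.04 ± 0.38 SE, adjusted p = 0.00409). The members that did not pass the test included the efflux transporters ABCA1 (log2 fold change -0.40 ± 0.14 SE, adjusted p = 0.0983) and ABCG1 (log2 fold change -0.48 ± 0.25 SE, adjusted p = 0.211) and the oxysterol receptor NR1H3 (log2 fold change 0.27 ± 0.20 SE, adjusted p = 0.347). Against the other 30 dyne/cm2 set ABCG1 passed, with a log2 fold change of -1.59 (adjusted p = 0.0168). ABCA1 passed only against both sets joined and with all 12 libraries (adjusted p = 0.0287 and 0.0497). In fits that left out donors 1, 2 and 3 in turn, 18, 21 and 20 members fell, and against the other 30 dyne/cm2 set 27 fell. SCAP did not pass the test without donor 1, nor did INSIG1 without donor 1 or 2, or SREBF2 without any 1 donor (adjusted p = 0.0530 to 0.151).

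**Figure D3:**
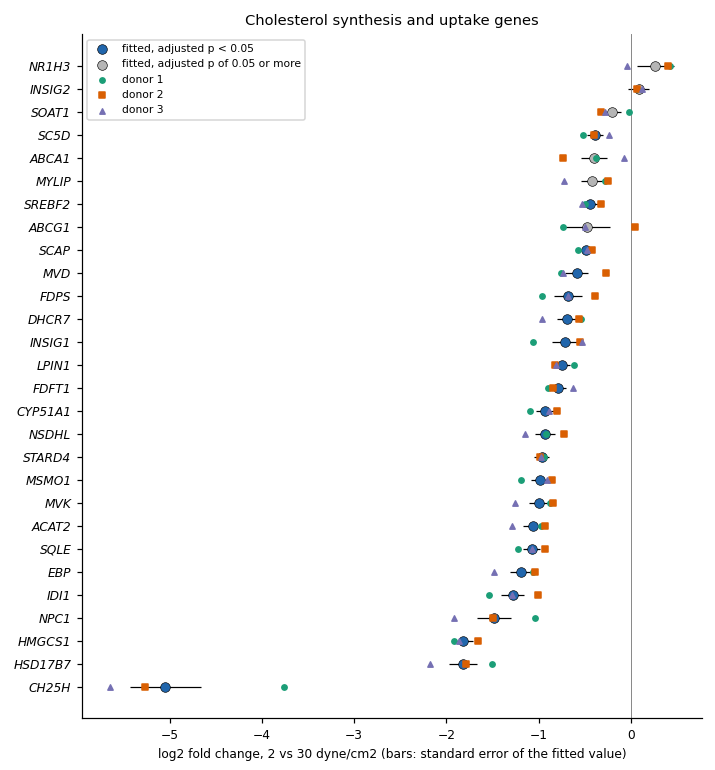
Of the tested genes of cholesterol synthesis and uptake, 28 are shown, ordered by fitted log2 fold change (2 against 30 dyne/cm2, large circles with standard error, blue where the adjusted p was under 0.05), with the value in each of 3 donors as small symbols. The 22 blue genes lie left of 0 in every donor, and CH25H lies apart from the rest at a fitted value of -5.04.

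Fatty acid genes followed in part. Of 31 members of fatty acid synthesis, desaturation and storage, 13 fell and 3 rose, with a median log2 fold change of -0.23. The elongase ELOVL6, the acetyl-CoA synthetase ACSS2 and the NADPH source ME1 fell by 1.25, 1.15 and 1.13, and the core enzymes ACLY, FASN and SCD by less, 0.73, 0.55 and 0.59. CIDEC (ENSSSCG00000011557, chromosome 13, 66141836 to 66149801), which fuses lipid droplets, had 17.2, 30.6 and 50.2 CPM at 30 dyne/cm2 and 0.256, 0.714 and 0.968 CPM at 2 dyne/cm2 and the smallest p of all genes with a symbol (log2 fold change -5.68 ± 0.17 SE, adjusted p = 0.00187). The joint list of fatty acid oxidation genes and PPAR targets had 8 of 28 members higher and 0 lower, and 20 did not pass the test. The members named here, PDK4, ANGPTL4 and PPARA, are not enzymes of fatty acid oxidation itself. PDK4, a kinase that inhibits pyruvate dehydrogenase, had 17.4, 20.8 and 8.30 CPM at 30 dyne/cm2 and 217, 199.8 and 111 CPM at 2 dyne/cm2. It rose by 3.64, 3.26 and 3.73 on the log2 scale in donors 1, 2 and 3 (log2 fold change 3.54 ± 0.13 SE, adjusted p = 0.00187). ANGPTL4, an inhibitor of lipoprotein lipase, rose from 6.95, 9.95 and 1.34 CPM to 81.3, 57.6 and 39.3 CPM without overlap (log2 fold change 3.53 ± 0.44 SE, adjusted p = 0.00936), and the receptor gene PPARA rose by 1.00 on the log2 scale. On the side of sugar, the glycolytic genes LDHA, PKM, ENO1 and HK1 fell by 1.29, 1.26, 0.75 and 0.74. Their list also holds genes of the hypoxia response, and 7 of its 29 members fell while 6 rose. The largest rise in it was that of ADM, a hypoxia member (log2 fold change 3.15). Subunits of oxidative phosphorylation shifted by a small amount, with 4 of 55 lower (7.27%) and a median of -0.15. The log2 fold change was negative in 51 of the 55, beside 5587 of 11226 tested genes. Their median was -0.145, -0.098 and -0.242 in donors 1, 2 and 3. Without donors 1, 2 and 3 in turn, 6, 8 and 8 fatty acid synthesis genes and 3, 4 and 7 glycolysis and hypoxia genes fell, and 2, 5 and 4 oxidation and PPAR genes rose. ACLY did not pass the test without donor 2, nor did FASN and ENO1 without any 1 donor, SCD without donor 1 or 2, or PPARA and HK1 without donor 1 (adjusted p = 0.0508 to 0.141).

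The share of lower genes was also above the background in protein quality control and in the NRF2 antioxidant response. Of 24 NRF2 targets 11 fell and 1 rose. The quinone reductase NQO1 had 475, 357 and 865 CPM at 30 dyne/cm2 and 173, 188 and 284 CPM at 2 dyne/cm2 without overlap (log2 fold change -1.33 ± 0.16 SE, adjusted p = 0.00881), and GCLM, for glutathione synthesis, fell by 0.69. The member that rose was SOD3, the secreted superoxide dismutase (log2 fold change 1.98). Of 33 members of the unfolded protein and integrated stress response, 14 fell and 2 rose. The folding enzymes and chaperones of the endoplasmic reticulum fell by small and similar amounts on the log2 scale, HSPA5 by 0.65, HSP90B1 by 0.65, PDIA4 by 0.71 and MANF by 0.89, while DDIT4, an inhibitor of mTORC1, fell by 1.62. Proteasome subunits had 13 of 40 members lower and 1 higher with none of these at 2-fold, and a median of -0.26. Cytosolic ribosomal proteins lay between -0.18 and 0.72 with a median of 0.10. Without donors 1, 2 and 3 the stress response members that fell numbered 5, 4 and 8, and the NRF2 targets 6, 9 and 5. HSPA5, HSP90B1 and PDIA4 did not pass the test without donor 1 or 2 (adjusted p = 0.0508 to 0.0823).

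At the blood-facing surface, genes of coagulation and fibrinolysis were mostly lower. Of 23 tested members, 14 (60.9%) fell, 11 of them at least 2-fold, and 2 rose, and the list median was -1.10. Against the other 30 dyne/cm2 set 11 fell and the median was -0.64. PLAU (ENSSSCG00000010312, chromosome 14, 76629313 to 76635173), the urokinase that activates plasminogen, had 669, 915 and 246 CPM at 30 dyne/cm2 and 75.5, 111 and 23.2 CPM at 2 dyne/cm2, and no value overlapped (log2 fold change -3.19 ± 0.12 SE, adjusted p = 0.00187). Its receptor gene PLAUR fell from 129, 163 and 175 CPM to 28.2, 32.2 and 11.1 CPM without overlap (log2 fold change -2.81 ± 0.39 SE, adjusted p = 0.0119), and PLAT, the tissue-type activator, fell by 0.70 on the log2 scale. The subunits of the plasmin receptor annexin A2, ANXA2 and S100A10, fell by 0.71 and 1.65. The class held genes of both sides of clotting. TFPI, the inhibitor of the tissue factor pathway, fell by 1.65, and the thrombin inhibitor gene SERPINE2 by 3.47. Of the ectonucleotidases, ENTPD1, which removes the platelet agonist ADP, fell by 3.30, and NT5E by 1.36. The protease-activated receptor genes F2RL1 and F2RL3 fell by 3.33 and 2.25. PROS1, which encodes the anticoagulant protein S, rose by 0.77. With donors 1, 2 and 3 left out in turn, 10, 9 and 12 members fell. PLAT did not pass the test without donor 2, nor did ANXA2 without any 1 donor, or PROS1 without donor 1 or 3 (adjusted p = 0.0552 to 0.204), and against the other 30 dyne/cm2 set the same held for PLAT and NT5E (adjusted p = 0.0502 to 0.0844).

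Proteases of the matrix were lower along with them. Of 32 metalloproteinases and their inhibitors, 15 (46.9%) fell and 4 rose, and all 3 donor medians were below 0. ADAMTS1 (ENSSSCG00000012026, chromosome 13, 190277175 to 190285957), which cleaves versican and aggrecan, had 164, 153 and 77.7 CPM at 30 dyne/cm2 and 1.97, 3.12 and 2.10 CPM at 2 dyne/cm2, with the groups far apart (log2 fold change -5.75 ± 0.26 SE, adjusted p = 0.00290). ADAMTS4, an enzyme of the same kind, fell by 3.18 on the log2 scale, and the membrane-bound sheddases ADAM15, ADAM17 and ADAM10 by 3.27, 0.55 and 0.53. MMP14, the membrane-anchored collagenase, fell from 869.6, 713 and 1065 CPM to 305, 253 and 249.7 CPM without overlap (log2 fold change -1.70 ± 0.16 SE, adjusted p = 0.00613). The tissue inhibitors fell as well, TIMP1 by 1.80 and TIMP3 by 1.52. The members that rose did so by less, ADAM23 by 1.08 and MMP16 by 0.91. ADAM17, ADAM10 and ADAM23 did not pass the test without donor 1, nor did TIMP3 without donor 1 or 3 (adjusted p = 0.0503 to 0.0994), and against the other 30 dyne/cm2 set the same held for TIMP3, ADAM23 and MMP16 (adjusted p = 0.0658 to 0.230).

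Among the matrix proteins themselves the classes differed. Matricellular and adhesive glycoproteins, which link cells to the matrix or modify growth factors, had 10 of 26 members (38.5%) higher, 9 of them at least 2-fold, and 2 lower. The median was 0.78, 0.44 and 1.29 in donors 1, 2 and 3. SPARCL1 had 3.61, 10.9 and 8.90 CPM at 30 dyne/cm2 and 18.4, 52.5 and 279.5 CPM at 2 dyne/cm2, highest in donor 3 and without overlap (log2 fold change 3.18 ± 0.63 SE, adjusted p = 0.0249). CCN2, the connective tissue growth factor, had 1687, 1212 and 838 CPM at 30 dyne/cm2 and 4892, 3859.5 and 6061 CPM at 2 dyne/cm2, also without overlap (log2 fold change 2.01 ± 0.31 SE, adjusted p = 0.0147). THBS1, an activator of TGF-beta, rose by 1.54 on the log2 scale, and SMOC1, which binds BMP, by 2.86, whereas CCN3 fell by 1.496. Crosslinking and elastic fibre genes had a median of 0.00 and changed in both directions. The crosslinking enzymes LOX, LOXL1, LOXL4, PLOD2, P3H2 and P4HA1 rose by 0.63 to 2.15, but the transglutaminase TGM2 fell by 3.34 and the elastic fibre gene EMILIN2 by 5.36. Of these 20 crosslinking and elastic fibre genes 6 rose and 3 fell, and without donors 1, 2 and 3 5, 2 and 4 rose and 4, 3 and 3 fell. THBS1 did not pass the test without donor 1 or 2, nor did LOX, PLOD2 and P3H2 without donor 2, LOXL4 without donor 2 or 3, or P4HA1 without donor 1 or 3 (adjusted p = 0.05002 to 0.113), and against the other 30 dyne/cm2 set the same held for LOX (adjusted p = 0.150).

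Collagen and laminin chains changed in both directions. The fibrillar chains COL3A1 and COL1A2 rose by 1.97 and 0.96 and the fibril-associated COL12A1 by 1.14, while COL6A1, of the microfibrils, the transmembrane collagens COL17A1 and COL23A1 and the basement membrane chain COL4A2 fell by 2.31, 2.37, 2.17 and 0.52. Of the 16 chains tested 4 rose and 5 fell. The rise of COL1A2 depended on the control, and its log2 fold change was -0.11 against the other 30 dyne/cm2 set. COL3A1 stood at 211, 139.6 and 191 CPM at 30 dyne/cm2 and 1117, 345 and 882 CPM at 2 dyne/cm2, without overlap and with the smallest step in donor 2 (log2 fold change 1.97 ± 0.24 SE, adjusted p = 0.00905). The count of called collagen chains was small without a donor, with 2, 3 and 3 higher and 2, 2 and 2 lower without donors 1, 2 and 3. Among laminin chains LAMA3 rose. It had 1.07, 0.0591 and 1.13 CPM at 30 dyne/cm2 and 6.19, 1.27 and 18.3 CPM at 2 dyne/cm2, without overlap (log2 fold change 3.38 ± 0.39 SE, adjusted p = 0.00839). LAMA5, LAMC1 and the nidogen NID2 fell by 1.43, 0.65 and 1.27. Among proteoglycans and enzymes of the glycocalyx, the surface layer that senses shear, 8 of 23 fell and 5 rose, with lower SDC1 (syndecan-1, log2 fold change -1.53), the hyaluronidase HYAL2 (log2 fold change -2.51), the hyaluronan receptor CD44 (log2 fold change -0.71) and the heparan sulfate enzyme HS3ST1 (log2 fold change -3.80). Small collagen-binding proteoglycans were among those that rose, ASPN by 4.18 and FMOD by 1.39 on the log2 scale. Of this last list 6, 5 and 8 fell and 4, 3 and 2 rose without donors 1, 2 and 3. COL1A2 did not pass the test without donor 2, nor did COL12A1 without donor 1, COL4A2 without any 1 donor, or LAMC1 without donor 1 or 2 (adjusted p = 0.0521 to 0.181), and against the other 30 dyne/cm2 set the same held for COL1A2, COL4A2 and CD44 (adjusted p = 0.133 to 0.803).

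**Figure D4:**
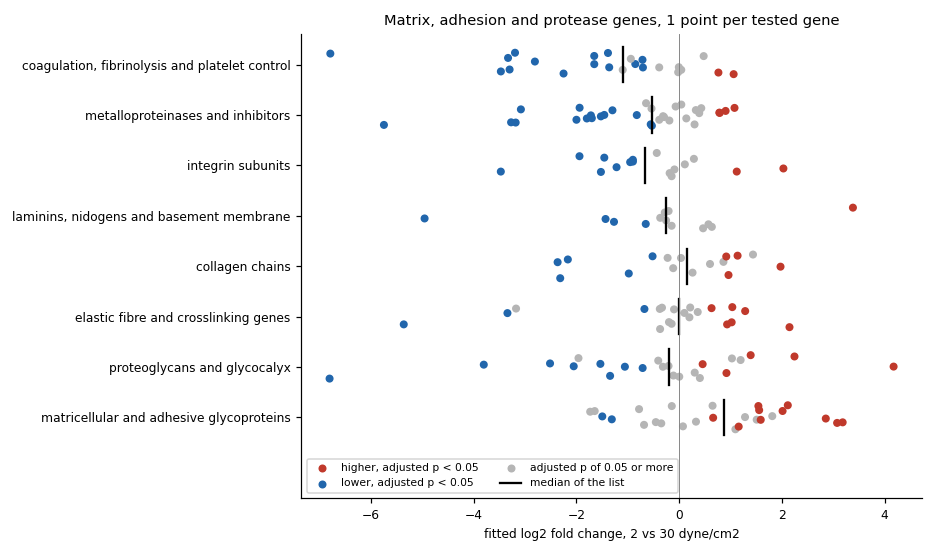
Each point is a tested gene of 8 lists placed by its fitted log2 fold change (2 against 30 dyne/cm2), red where it rose and blue where it fell at an adjusted p under 0.05, grey otherwise, and black bars mark list medians. The points of the coagulation, metalloproteinase and integrin lists lie mainly left of 0 and those of the matricellular list mainly right of 0, with the other matrix lists on both sides.

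Receptors for the matrix were lower. Of 16 integrin subunits 8 (50%) fell and 2 rose, and the donor medians were all below 0. ITGB3, a subunit of the vitronectin receptor, had 139.8, 112 and 193 CPM at 30 dyne/cm2 and 10.4, 21.0 and 10.1 CPM at 2 dyne/cm2, without overlap (log2 fold change -3.47 ± 0.39 SE, adjusted p = 0.00787). ITGA5, which pairs in the fibronectin receptor, fell by 1.22 on the log2 scale, and the laminin-binding ITGA6 and ITGA3 by 1.94 and 0.90. ITGA1, of a collagen and laminin receptor, rose from 11.9, 10.5 and 7.37 CPM to 35.5, 25.9 and 71.7 CPM (log2 fold change 2.03 ± 0.42 SE, adjusted p = 0.0277), and ITGB5 rose by 1.12. Genes of adherens and tight junctions moved little. Of 20 tested, 5 fell, by 0.35 to 0.91, among them CTNNB1, PECAM1, ESAM and the desmosomal relative PKP4, and none of these reached 2-fold. The gap junction genes GJC1 and GJA4, which encode connexins, changed in opposite directions (log2 fold changes -1.56 and 2.41). CTNNB1 did not pass the test without donor 1, nor did PECAM1 and ESAM without donor 1 or 2, PKP4 without any 1 donor, or GJA4 without donor 2 (adjusted p = 0.0517 to 0.192), and against the other 30 dyne/cm2 set the same held for GJA4 (adjusted p = 0.989).

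Of 16 leukocyte adhesion genes and chemokines, 3 fell and 2 rose. The donors were not alike, with a median log2 fold change of 0.24, -0.48 and -0.62 in donors 1, 2 and 3, and 5, 2 and 3 fell and 2, 1 and 2 rose without each in turn. P-selectin, SELP, had 899, 759 and 981 CPM at 30 dyne/cm2 and 186, 81.9 and 34.7 CPM at 2 dyne/cm2, with the widest gap in donor 3 (log2 fold change -3.41 ± 0.53 SE, adjusted p = 0.0152). ICAM1 fell by 1.02 on the log2 scale, and VCAM1 did not pass the test (log2 fold change -0.23 ± 0.19 SE, adjusted p = 0.390). The chemokine genes CXCL14 and CXCL12 rose by 3.13 and 1.56. Among cytokines, IL7 rose by 3.76, and IL11, IL34 and IL33 fell by 2.14, 2.06 and 1.64. Small calcium-binding proteins of the S100 family, taken by symbol, had 6 of 8 members lower, 5 of them at least 2-fold, led by S100A4. It stood at 13.8, 40.4 and 207 CPM at 30 dyne/cm2 and 1.15, 3.18 and 1.53 CPM at 2 dyne/cm2, lower in every donor from unequal levels at 30 dyne/cm2 (log2 fold change -4.75 ± 0.79 SE, adjusted p = 0.0174). SELP and IL34 did not pass the test without donor 2 (adjusted p = 0.0531 to 0.0654), and against the other 30 dyne/cm2 set the same held for CXCL12 and IL34 (adjusted p = 0.0576 to 0.0795).

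Interferon response and antigen processing genes had 10 of 37 members (27.0%) higher, but the donors were not alike. The median log2 fold change was 1.01 in donor 1, 0.13 in donor 2 and 0.77 in donor 3. IFIT2, which binds viral RNA, had 7.48, 15.3 and 2.36 CPM at 30 dyne/cm2 and 70.4, 23.5 and 12.2 CPM at 2 dyne/cm2, and these groups overlapped (log2 fold change 2.07 ± 0.54 SE, adjusted p = 0.0481). GBP1, a guanylate-binding protein gene, had 4.75, 12.1 and 3.37 CPM at 30 dyne/cm2 and 31.4, 21.2 and 21.7 CPM at 2 dyne/cm2, without overlap (log2 fold change 2.06 ± 0.44 SE, adjusted p = 0.0296). The count rested on single donors. In turn, 2 members rose and 1 fell without donor 1, 18 rose without donor 2 and 1 rose without donor 3, and against the other 30 dyne/cm2 set 4 rose and 2 fell. IFIT2 did not pass the test without donor 1 or 3, nor did GBP1 without donor 3 (adjusted p = 0.0658 to 0.141), and against the other 30 dyne/cm2 set the same held for IFIT2 (adjusted p = 0.0702).

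In the cytoskeleton the genes of the cytoplasmic actins did not pass the test, and their values overlapped. ACTB had 2023, 1784 and 2387 CPM at 30 dyne/cm2 and 1820.1, 1958 and 2417 CPM at 2 dyne/cm2 (log2 fold change 0.00 ± 0.13 SE, adjusted p = 0.999), and ACTG1 had 3694, 2914 and 3422 CPM at 30 dyne/cm2 and 3244, 2900.5 and 3853 CPM at 2 dyne/cm2 (log2 fold change -0.01 ± 0.15 SE, adjusted p = 0.972). Genes that bind or bundle actin changed in both directions. Of 31 stress fibre genes 8 rose and 3 fell, including the tropomyosins TPM1 (log2 fold change 2.19) and TPM2 (log2 fold change 1.24) and the myosin light chain MYL9 (log2 fold change 1.29). The actin bundler SYNPO2 had 7.36, 5.91 and 2.48 CPM at 30 dyne/cm2 and 100.4, 84.3 and 111 CPM at 2 dyne/cm2, with the groups far apart (log2 fold change 4.30 ± 0.39 SE, adjusted p = 0.00588). Of 51 actin regulators 14 fell and 5 rose. The fall on the log2 scale was 1.20 for ezrin (EZR) and 0.48 for moesin (MSN), which tether actin to the membrane, and 0.95, 1.23 and 1.17 for the formins DIAPH1, DAAM1 and FMNL3. WASF3, an activator of actin branching, rose by 1.59. The list for the mechanosensitive cofactors YAP and TAZ holds their targets and also genes of the pathway itself. It had 10 of 26 members (38.5%) higher and 5 lower, and 11, known targets among them, did not pass the test. AJUBA, VGLL3 and AMOTL2 rose by 2.26, 2.33 and 1.44, and WWTR1, the gene of TAZ itself, which the list also holds, by 1.08. The lowest value was that of NT5E, -1.36, which did not pass against the other 30 dyne/cm2 set (adjusted p = 0.0844). In fits that left out donors 1, 2 and 3 in turn, 6, 4 and 6 stress fibre genes rose, and 8, 7 and 10 actin regulators fell. TPM1, MYL9 and AMOTL2 did not pass the test without donor 2, nor did MSN without any 1 donor (adjusted p = 0.0580 to 0.213), and against the other 30 dyne/cm2 set the same held for TPM1, MYL9, MSN and AJUBA (adjusted p = 0.0511 to 0.109).

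Potassium and chloride channel genes that passed the test were lower, and other channel genes changed in both directions. Of 24 potassium and chloride channels 10 (41.7%) fell and 0 rose. Potassium channel genes taken by symbol had 5 of 15 members lower and 0 higher. Their median was 0.20, with 8 values positive and 7 negative, so this family did not lean lower by its median. ANO1 (ENSSSCG00000024158, chromosome 2, 3202269 to 3373409), a calcium-activated chloride channel, had 109, 137 and 471 CPM at 30 dyne/cm2 and 2.40, 3.60 and 7.44 CPM at 2 dyne/cm2, without overlap (log2 fold change -5.59 ± 0.18 SE, adjusted p = 0.00187). The calcium-activated potassium channel genes KCNN4 and KCNN3, through which calcium hyperpolarises ECs, fell by 3.32 and 2.33 on the log2 scale. Of 39 calcium, sodium and mechanosensitive channels and pumps, 11 fell and 6 rose. The inositol trisphosphate receptor ITPR3, the calcium pump ATP2B4, the store-operated channel ORAI1 and the ATP receptor P2RY2 fell by 2.68, 3.07, 1.51 and 1.69. PIEZO1, a channel that opens under membrane tension and serves as a flow sensor, had 656, 572 and 841 CPM at 30 dyne/cm2 and 398, 476 and 428 CPM at 2 dyne/cm2, without overlap and by a small step (log2 fold change -0.65 ± 0.16 SE, adjusted p = 0.0417). The water channel AQP1 fell from 31.2, 23.2 and 21.0 CPM to 3.94, 2.73 and 3.77 CPM with the 3 values at 2 dyne/cm2 all lower (log2 fold change -2.85 ± 0.16 SE, adjusted p = 0.00331). Without donors 1, 2 and 3 in turn, 6, 8 and 5 potassium and chloride channels fell, and of the calcium, sodium and mechanosensitive list 7, 9 and 7 fell and 3, 1 and 3 rose. KCNN3 did not pass the test without donor 3, nor did PIEZO1 without donor 1 or 3 (adjusted p = 0.0786 to 0.128).

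The primary cilium is an antenna that ECs are known to carry under low flow and lose under high shear, and its called members all went up. Of 54 tested members 12 (22.2%) rose, 5 of them at least 2-fold, and the median log2 fold change was 0.24. The rise included intraflagellar transport genes, with log2 fold changes of 2.64 for WDR35, 1.17 for IFT140, 0.69 for IFT57 and 0.53 for IFT88. It also included the Bardet-Biedl genes BBS1, BBS2 and BBS10, by 1.24, 0.64 and 1.43. PTCH1, the hedgehog receptor and target, had 2.39, 2.92 and 3.58 CPM at 30 dyne/cm2 and 12.7, 7.89 and 33.1 CPM at 2 dyne/cm2, with the largest step in donor 3 and no overlap (log2 fold change 2.37 ± 0.36 SE, adjusted p = 0.0142). Without donors 1, 2 and 3 the numbers that rose were 5, 4 and 5, beside 695, 914 and 725 of all genes. Against the other set 6 rose and 1 fell, beside 1304 and 1465 of all genes. IFT57 did not pass the test without any 1 donor, nor did IFT88 without donor 1 or 2, BBS1 without donor 2, or BBS2 without donor 1 or 3 (adjusted p = 0.0537 to 0.106), and against the other 30 dyne/cm2 set the same held for WDR35, IFT57, BBS2 and BBS10 (adjusted p = 0.0506 to 0.203).

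Proliferation genes leaned lower without passing the test in most cases. The median log2 fold change of 64 mitosis genes was -0.71, and 2 of them fell, CDC25B (log2 fold change -1.69 ± 0.20 SE, adjusted p = 0.00862) and MELK (log2 fold change -1.40 ± 0.28 SE, adjusted p = 0.0265). The median was -0.40, -0.23 and -1.51 in donors 1, 2 and 3. Cyclin B1, CCNB1, had 69.1, 47.3 and 117 CPM at 30 dyne/cm2 and 49.2, 32.1 and 28.9 CPM at 2 dyne/cm2 (log2 fold change -1.01 ± 0.33 SE, adjusted p = 0.0829), lower in each donor, with the widest gap in donor 3, although the groups overlapped. It passed the test, lower, without donor 1 or donor 3, against the other 30 dyne/cm2 set or both sets joined, with all 12 libraries and with DESeq2 (adjusted p = 0.00565 to 0.0462). Of 54 DNA replication genes 5 fell, among them CDC45, part of the replicative helicase (log2 fold change -1.82). The count of mitosis genes depended on the control, and against the other 30 dyne/cm2 set 48 of 64 fell and 22 of 54 replication genes did. Cell cycle brakes and p53 targets had 11 of 35 members higher and 9 lower, with CDKN1B (p27) at 17.7, 22.5 and 21.8 CPM at 30 dyne/cm2 and 51.7, 41.8 and 75.6 CPM at 2 dyne/cm2, without overlap (log2 fold change 1.41 ± 0.19 SE, adjusted p = 0.0112), MDM2 higher by 0.55 on the log2 scale, and a fall of the D cyclin CCND1 (log2 fold change -0.69, and 0.02 against the other 30 dyne/cm2 set). With donors 1, 2 and 3 left out in turn, 3, 6 and 5 of these rose and 1, 5 and 2 fell. MDM2 and CCND1 did not pass the test without donor 1 or 3 (adjusted p = 0.0534 to 0.0850), and against the other 30 dyne/cm2 set the same held for CCND1 (adjusted p = 0.884).

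Axon guidance cues, which ECs also read, changed in both directions, with 8 of 27 members higher and 8 lower. SEMA3G, a secreted semaphorin of ECs, had 729.7, 619.6 and 552 CPM at 30 dyne/cm2 and 108, 234 and 199 CPM at 2 dyne/cm2, without overlap (log2 fold change -1.87 ± 0.30 SE, adjusted p = 0.0163), and the plexin receptor PLXNA2 fell by 0.76 on the log2 scale while PLXNB1 and PLXNB2 rose by 0.62 and 0.60. In the Wnt pathway 4 of 19 members rose and 1 fell. The members that rose were the ligand gene WNT2B and the receptor genes FZD4, FZD5 and FZD8, by 1.55, 0.99, 1.19 and 1.91, and the ligand gene WNT9B fell by 8.09, from 147, 75.2 and 378 CPM to 0.665, 0.585 and 0.634 CPM. Among mesenchymal transition genes 4 of 10 rose and 3 fell. The receptor genes PDGFRA and PDGFRB rose by 1.09 and 2.41, both at low levels. PDGFRA had 2.10, 1.86 and 1.10 CPM at 30 dyne/cm2 and 4.86, 2.86 and 3.04 CPM at 2 dyne/cm2. PDGFRB had 1.22, 0.207 and 0.955 CPM at 30 dyne/cm2 and 4.91, 1.04 and 7.07 CPM at 2 dyne/cm2, in groups that overlapped. The largest fall of the list was that of S100A4 (log2 fold change -4.75), and the transition factor gene SNAI1 fell by 1.02. Microtubule genes had 11 of 40 members lower and 3 higher, mostly by small amounts, among them the tubulin gene TUBA1B and the kinesin gene KIF5B, which fell by 0.62 and 0.58. Transporters of water, glucose and amino acids had 6 of 23 members lower and 4 higher. The taurine transporter SLC6A6, the cystine transporter SLC7A11 and the glutamine transporter SLC38A2 fell by 3.04, 1.04 and 1.00, and the neutral amino acid transporter SLC43A2 rose by 1.21. Left out in turn, donors 1, 2 and 3 brought the axon guidance genes that rose to 3, 3 and 3, those that fell to 5, 6 and 6, and the microtubule genes that fell to 2, 4 and 3. PLXNA2, PDGFRA, SNAI1 and SLC7A11 did not pass the test without donor 1 or 3, nor did PLXNB1 without donor 2 or 3, PLXNB2 and KIF5B without donor 1 or 2, WNT2B and FZD4 without donor 2, or TUBA1B without any 1 donor (adjusted p = 0.0525 to 0.121), and against the other 30 dyne/cm2 set the same held for PLXNB1, PDGFRA, SNAI1, TUBA1B, KIF5B and SLC7A11 (adjusted p = 0.0844 to 0.416).

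Further classes held members with large changes in both directions. In the list of xenobiotic and steroid metabolism, which also holds retinoid enzymes, 9 of 20 members rose and 4 fell, with DHRS3, which turns retinal back to retinol, at 8.65, 23.3 and 1.10 CPM at 30 dyne/cm2 and 214, 171 and 148 CPM at 2 dyne/cm2, without overlap (log2 fold change 4.60 ± 0.81 SE, adjusted p = 0.0198), CYP24A1, which inactivates vitamin D, higher by 4.18 on the log2 scale, and ALDH1A1, which oxidises retinal, higher by 2.03. The sulfotransferase SULT1B1 fell by 4.94. In the IGF system 4 of 10 members rose and 2 fell. IRS2 and IGF1R rose by 2.29 and 1.02 and IGFBP6 fell by 4.42. Of 27 lineage transcription factors 6 rose and 4 fell, with a median of 0.01. The homeobox genes HLX and HOXA5 rose by 1.57 and 1.45, ETS2 and LMO2 fell by 1.91 and 1.36, and ERG, which holds endothelial identity, did not pass the test (log2 fold change -0.22 ± 0.09 SE, adjusted p = 0.134). Several genes outside the lists had some of the smallest p values. The mucin-type glycosyltransferase GALNT15 had 10.7, 6.79 and 14.3 CPM at 30 dyne/cm2 and 131, 99.2 and 148 CPM at 2 dyne/cm2 (log2 fold change 3.61 ± 0.13 SE, adjusted p = 0.00187), and the endocytic recycling gene EHD3 rose by 2.18. CCDC141 had 22.4, 19.6 and 45.2 CPM at 30 dyne/cm2 and 0.460, 0.292 and 1.27 CPM at 2 dyne/cm2 (log2 fold change -5.50 ± 0.20 SE, adjusted p = 0.00187), DEPP1, a target of FOXO factors, fell by 4.49, and ATP13A3, a polyamine transporter, fell by 2.11. In each of these 5 genes the 2 groups did not overlap. Without donors 1, 2 and 3, 5, 6 and 6 members of the first list rose, and 7, 3 and 5 lineage factors rose while 4, 4 and 4 fell. Against the other 30 dyne/cm2 set 4 lineage factors rose and 6 fell, with a median of -0.11, and 6 members of the first list rose. HLX did not pass the test without donor 2 or 3 (adjusted p = 0.0590 to 0.0776).

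**Figure D5:**
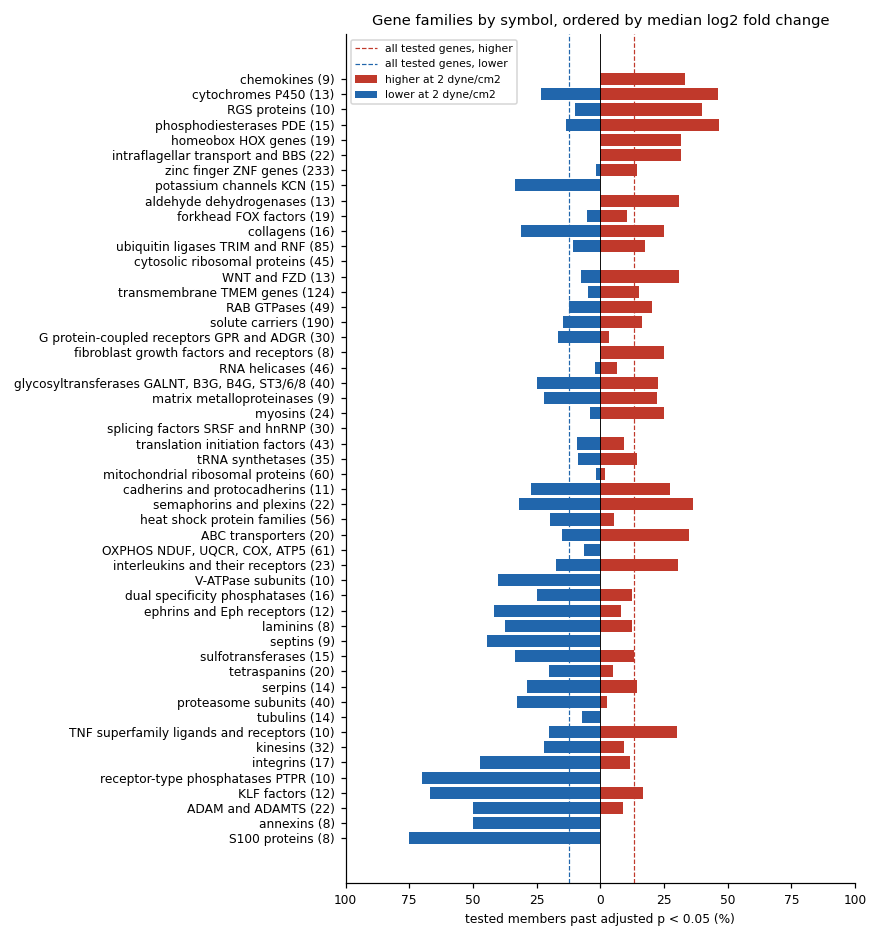
Bars give the percentage of tested members that rose (red) or fell (blue) at an adjusted p under 0.05 in gene families taken by symbol, ordered by median log2 fold change, with dashed lines at the 13.4% and 12.4% of all tested genes. S100 proteins, annexins, ADAM and ADAMTS proteases, KLF factors and receptor-type phosphatases have at least 50% of members lower, and HOX, intraflagellar transport and phosphodiesterase genes have more members higher than lower.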

How the data were processed

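The authors isolated RNA from the cultures, sequenced it on an Illumina instrument and processed the reads with CASAVA 1.8.2. They mapped 100-base single-end reads with STAR 2.4 to the pig assembly Sscrofa11.1, kept reads with a single place, and counted reads on merged exons of protein-coding genes with featureCounts 1.4.6. The deposited table holds these raw counts for 21153 genes. Genes with near-identical copies lose reads by this rule, and whether counting used the strand is not given in the sources used here, so reads of overlapping genes may be mixed.

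A table of gene identifiers and symbols named 14572 of them (68.9%). Coordinates are those of RefSeq on Sscrofa11.1, matched by symbol. Genes with at least 1 CPM (count per 1000000 reads) in 3 of the 6 libraries were tested (11226 genes), scaled by TMM and fitted with the replicate number as a block and the condition as the term of interest (edgeR 4.0.16 quasi-likelihood test in R 4.3.3, Benjamini-Hochberg adjustment). Printed CPM are normalised by TMM. The study's own filter was on RPKM, which needs gene lengths not used here. The pairing comes from the replicate numbers in the labels and from the methods, where compared cultures share donor and passage. Same-numbered libraries deviated together from their group means (correlations 0.713, 0.656 and 0.630, against -0.416 to -0.227 between other numbers). Deviations from a group mean cancel within the group, so positive values for same numbers force negative ones between other numbers. The negative values are therefore no separate evidence of the pairing. The block leaves 2 residual degrees of freedom, and p-values cover the spread between these 3 pairs of cultures. The biological coefficient of variation was 15.5%. The counts (29606854 to 41058902 per library) make counting error small for genes over a few CPM.

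Gene lists, families and their members were chosen with earlier results of these data known. Genes were named by list anchors, by the 4 largest changes past both thresholds in each list (mean count of at least 50), and by the 8 smallest p in each direction. Of 266 genes named, 169 were taken by this rule and 97 were named after their values were seen. The main fit and its thresholds were tested on simulated counts, and the alternatives and list summaries were not. Alternatives were RLE scaling, library size only, DESeq2 1.42.0, 3 other filters, no block, the other 30 dyne/cm2 set or both sets as control, all 12 libraries in the fit, each donor left out, and a test against 1.5-fold (glmTreat). No promoter or protein sequence was used here, and some genes and 1 gene class are not reported here. Columns of the 80 dyne/cm2 cultures entered only the fit of all 12 libraries.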

Additional observations from a re-analysis of the deposited data

How the results depend on the processing

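The 1078 genes past both thresholds (568 higher, 510 lower) had the same direction in every setting in which they were tested except the other 30 dyne/cm2 set, where 1062 of 1066 did. With RLE scaling, library size only, DESeq2 and filterByExpr, 1061 to 1073 were called again. Against the other set 729 were called again, against both sets joined 908. Of the 266 genes named, 15 lost their call with both sets joined, among them FOS, RGS4 and GJA4 (adjusted p = 0.180, 0.203 and 0.448). Calls were gained there by 4, FN1, KDR, CCNB1 and ABCA1. With all 12 libraries the same 4 gained a call and 5 lost it, EMCN, ROBO4, CCND1, COL1A2 and COL4A2 (adjusted p = 0.0539 to 0.0978). The test against 1.5-fold gave 287 higher and 344 lower genes. Counts without the fold threshold (1505 higher, 1390 lower) became 2331 and 2255 with all 12 libraries, and 2128 lower with both sets as control. When 1 donor was left out, 353 to 523 genes were higher and 368 to 478 lower past both thresholds, and 695 to 914 higher and 694 to 885 lower without the fold threshold, with the lowest counts without donor 3 in the first pair and without donor 1 in the second. These fits hold only 2 donors.

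Without the replicate block, 298 genes were higher and 337 lower past both thresholds, 572 and 672 without the fold threshold, and 628 of the 1078 were called again, all 1078 in the same direction. Of the 266 genes named, 91 that passed the paired test did not pass without the block, and 175 stayed on their side of the threshold. The cause of the lower counts was not tested.

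Some values changed sign. Among called genes, CCND1 turned from -0.69 to 0.022 and COL1A2 from 0.96 to -0.111 against the other set. The other sign changes were of genes that did not pass the test. The value of ACTB was -0.016 with library size only, -0.015 without a filter, -0.012 with filterByExpr, -0.003 with at least 10 counts in every library, -0.006 with all 12 libraries, and -0.063 to 0.073 when 1 donor was left out. That of ACTG1 was 0.203 against the other set, 0.090 against both and -0.094 to 0.079 when 1 donor was left out, and that of SMTN -0.041 to 0.128 when 1 donor was left out. Against the other set CDH5 was at 0.054 and VCAM1 at 0.441 (0.079 against both). List medians changed sign for 8 of 51 lists against the other set and for 0 to 3 in other settings. More lists moved by at least the standard deviation of their 3 donor medians. This held for 22 of 51 lists against the other set, 17 with both sets, 17 without a filter, and 0 to 11 in other settings. Low depth bears on genes of a few CPM.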

Other observations

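Families whose members were taken by symbol hold further classes, and the families shown were chosen with earlier results known. Phosphodiesterases, which end cyclic AMP and cyclic GMP signals, had 7 of 15 members higher, 6 of them at least 2-fold, and 2 lower. PDE2A, which cyclic GMP activates, had 63.0, 52.7 and 23.5 CPM at 30 dyne/cm2 and 254, 208 and 325 CPM at 2 dyne/cm2 without overlap (log2 fold change 2.57 ± 0.41 SE, adjusted p = 0.0159), and PDE5A, which degrades cyclic GMP, rose by 1.31 on the log2 scale. Of 10 RGS genes, which shorten G protein signals, 4 rose and 1 fell, with RGS2 higher by 2.38 and RGS4 lower, at -1.33. Receptor-type tyrosine phosphatases had 7 of 10 members lower and none of these at 2-fold, among them PTPRB (log2 fold change -0.45 ± 0.09 SE, adjusted p = 0.0273), the phosphatase that restrains Tie2 and vascular endothelial cadherin. Annexins, which bind calcium and membranes, had 4 of 8 members lower, by 0.65 (ANXA1) to 0.92 (ANXA7). RGS4 did not pass the test without donor 2, nor did PTPRB without any 1 donor, or ANXA1 without donor 2 or 3 (adjusted p = 0.0605 to 0.111), and against the other 30 dyne/cm2 set the same held for RGS4 and ANXA1 (adjusted p = 0.180 to 0.906).

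Homeobox genes of the HOX clusters, which hold positional identity, had 6 of 19 members higher, and all of these lie in the HOXA cluster, from HOXA9 at 0.97 to HOXA10 at 1.75 on the log2 scale. HOXA5 had 42.1, 21.6 and 33.5 CPM at 30 dyne/cm2 and 134, 50.7 and 91.0 CPM at 2 dyne/cm2 without overlap (log2 fold change 1.45 ± 0.11 SE, adjusted p = 0.00411). Zinc finger genes had 34 of 233 members higher (14.6%, against 13.4% of all genes) and 4 lower (1.72%, against 12.4%), with a median log2 fold change of 0.20. Aldehyde dehydrogenases had 4 of 13 higher, with ALDH5A1 at 2.17, and V-ATPase subunits, which acidify lysosomes, had 4 of 10 lower. ALDH5A1 did not pass the test without donor 2 (adjusted p = 0.0577), and against the other 30 dyne/cm2 set the same held for HOXA9 (adjusted p = 0.0639).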
